A study of Mus musculus with 8 samples.

Results

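Olig2, Nkx2-2, Pax6, Sox1, Sox9, Hes1, Hes5, Fabp7, Slc1a3 and Neurog2, which are genes of neural progenitors and of the glial lineages that follow from them, were followed through a pull-down of the long noncoding RNA Lhx1os. The 10 genes were taken from the deposited count and FPKM tables by the symbol of their Ensembl mouse gene ID, out of 55471 gene IDs in all. Each symbol matched 1 ID, and each of the 10 passed the filter on low counts that left 16524 genes for testing. All 10 were lower in replicate 2 than in replicate 1 in every group, as were 21% of the genes tested. None passed the main test of a difference between the Lhx1os probes and the control probes. Neither did any other of the 16524 genes tested, the target Lhx1os included.

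RNA was sequenced from spinal motor neurons made from the mouse embryonic stem cell line HBG3, in which the HB9 promoter, active in motor neurons, drives GFP, a fluorescent reporter. All 8 libraries came from cells that were differentiated, dissociated, plated and kept for 3 further days, and the labels name no genetic change or drug that sets the groups apart. The ODD and EVEN groups are RNA captured with 2 sets of biotinylated antisense probes of 20 nt against every Lhx1os isoform, the LacZ group is RNA captured with probes against the bacterial LacZ mRNA as a negative control, and Input is the RNA that each capture was compared with. Each group has 2 libraries, numbered replicate 1 and replicate 2, and the number is given in the labels as the batch of 2 independent experiments. The labels name a single stem cell line and mention no sort for reporter-positive cells.

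In the ventral spinal cord, progenitor cells first give rise to neurons and later to glia. Transcription factors that repress one another divide the progenitors into domains: the Olig2 domain makes motor neurons and then oligodendrocyte precursors, and its neighbour is marked by Nkx2-2. Notch signalling holds cells as progenitors by inducing Hes genes, which repress proneural genes such as Neurog2, and Sox9 is needed for the change from making neurons to making glia.

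Total counts were between 7632775 and 24628435 per library, with both Input libraries the deepest. Lhx1os, the target, was counted 2239 and 371 times with the ODD probes and 1767 and 283 times with the EVEN probes for replicates 1 and 2, against 16 and 28 times with the LacZ probes and 55 and 61 times without capture. Capture was thus seen with both Lhx1os probe sets in both experiments. In CPM, counts scaled to a common library size by TMM, Lhx1os went from 180 to 35.7 with the ODD probes and from 150 to 25.4 with the EVEN probes between replicate 1 and replicate 2. Defining markers of motor neurons were present in both Input libraries: Mnx1, the gene whose promoter drives the reporter, had 48.3 and 69.0 CPM, and Chat, the acetylcholine-synthesising enzyme, had 12.9 and 36.5 CPM. The pluripotency gene Pou5f1 had 0 counts in all 8 libraries, Nanog had 0 to 10, and the microglial genes Cx3cr1 and P2ry12 had 0 to 2. Since these are bulk libraries, fewer cells of a type and less RNA per cell cannot be told apart in any level given here.

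A probe antisense to Lhx1os could also pair with another RNA that shares a stretch of sequence with Lhx1os on the same strand, so the longest such stretch was looked up in 1 GENCODE M21 transcript (GRCm38) for each gene, against the 3 annotated Lhx1os isoforms. The longest run was 9 nt in Hes1, 10 nt in Nkx2-2 and Sox1, and 11 nt in the other 7 genes, against probes of 20 nt. Among the genes tested that have a transcript, 60.5% shared 11 nt or more and 1.21% shared 20 nt or more. Nkx2-2, Sox1 and Sox9 also departed from Input in the pull-downs, and their runs are not shown. As examples, the runs of 4 other genes whose pull-down level departed from Input in at least 1 experiment are shown 5′ to 3′. They are in capitals, because every base is shared with Lhx1os.
Hes5, coding sequence, chr4:154961266-154961276 (+): TGGAGATGGCC
Fabp7, coding sequence, chr10:57786567-57786577 (+): CTCAGGTTGGC
Slc1a3, coding sequence, chr15:8642239-8642249 (-): TTGGCTGCCAT
Olig2, 3′ UTR, chr16:91227458-91227468 (+): AAGAAGGGGAG

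Levels are compared between genes only in FPKM, which divides by gene length. Fabp7, a fatty acid binding protein of radial glia, was the most abundant of the 10 genes in Input, at 440 ± 9.82 FPKM (SD, n = 2). The factors Olig2 at 99.2 ± 64.0 FPKM and Sox9 at 87.1 ± 43.9 FPKM (SD, n = 2) came next. Hes5, Slc1a3, Nkx2-2 and Hes1 followed with mean levels of 32.5, 26.5, 23.2 and 20.6 FPKM. Sox1 had 16.5 ± 0.603, Neurog2 7.27 ± 0.498 and Pax6 0.834 ± 0.348 FPKM (SD, n = 2). Between neighbours in this order, the ranges of the replicates overlapped for Olig2 and Sox9, and for each step from Hes5 down to Hes1; the other neighbours did not overlap. Fabp7 was also first, and Sox1, Neurog2 and Pax6 were last in that order, in the LacZ, ODD and EVEN groups.

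**Figure D1:**
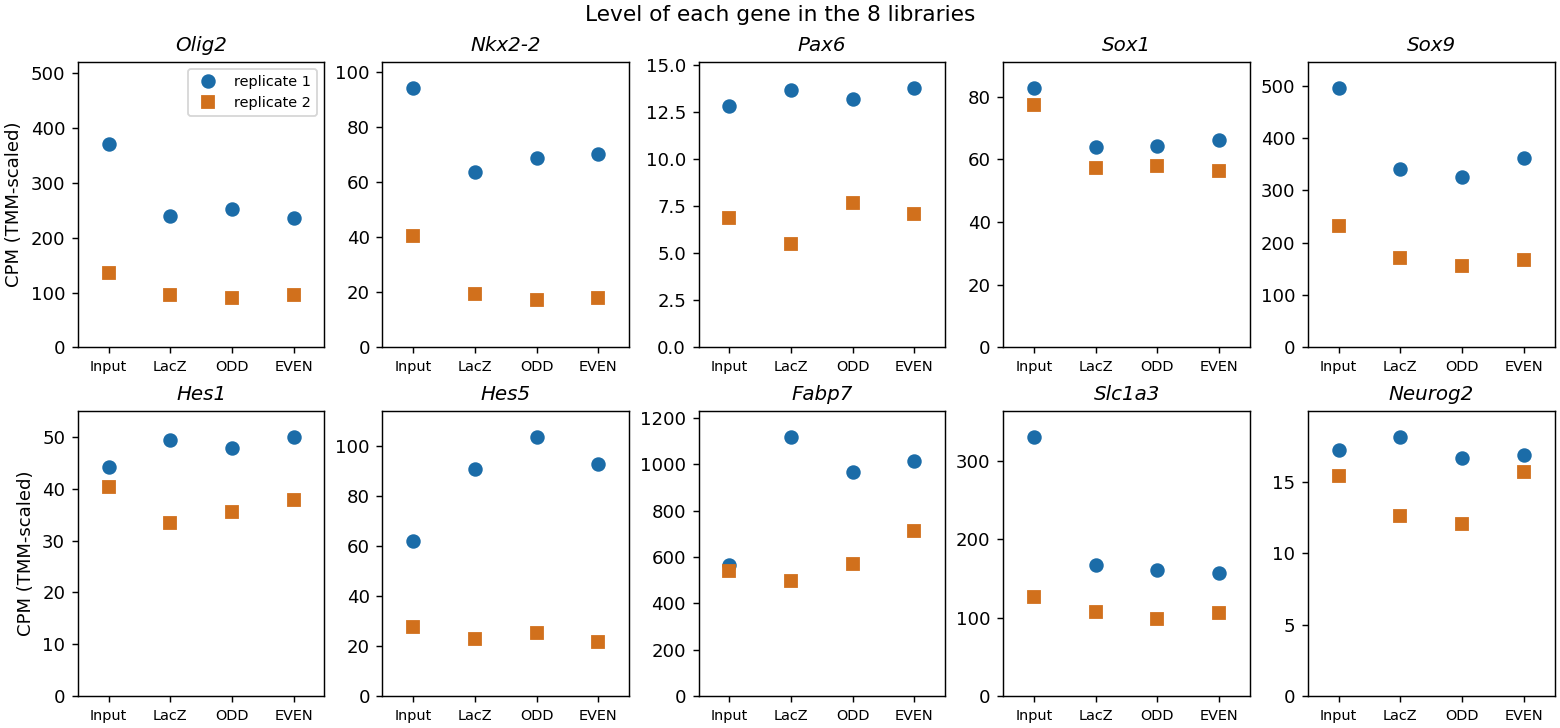
Level of each of the 10 genes in the 8 libraries, as CPM on a linear axis that starts at 0 and has its own range for each gene; circles are replicate 1 and squares replicate 2. In each panel the square of a group lies under its circle. Examples are 371 against 136 CPM for Olig2 in Input, and 82.8 against 77.4 CPM for Sox1 in Input.

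The first comparison sets replicate 2 against replicate 1 within each group, as the log2 ratio of CPM + 1. It is a description with no test, since the 4 libraries of an experiment share a batch. The 10 genes were lower in replicate 2 in all 4 groups, as were 21% of the genes tested, while 24.9% of genes were higher in all 4. Past 2-fold lower in all 4 groups were 3 of the 10, Olig2, Nkx2-2 and Hes5, against 0.902% of genes tested, and none of the 10 was past 2-fold higher, against 0.974%. The median of the 10 means over groups was -0.85, and that of all genes tested was 0.01. The second comparison sets each pull-down against Input with edgeR's quasi-likelihood test on all 8 libraries and a threshold of 0.05 on the p-value adjusted over all genes. None of the 10 genes passed in ODD, EVEN or LacZ, where 6.46%, 5.37% and 6.98% of genes were called higher and 0.375%, 0.284% and 0.43% lower. DESeq2 and limma also called 0 of the 10. Of all genes, DESeq2 called 8.34%, 7.54% and 7.74% in ODD, EVEN and LacZ. In the same order, limma on log2(FPKM + 1) called 4.87%, 2.66% and 6.26%. At an unadjusted p under 0.05 in edgeR there was 1 of the 10, Sox1, in each pull-down. Beside it, 3031, 3114 and 3130 of the 16524 genes tested had such a p in ODD, EVEN and LacZ. With the replicate number as a block, which takes out the difference between the experiments, 5 of the 10 were called lower in ODD and 4 each in EVEN and LacZ. With that block 6.55%, 6.41% and 7% of all genes were called lower in ODD, EVEN and LacZ, and none of the 10 was called higher, against 12.6%, 12.8% and 12.7% of all genes.

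Olig2 (chr16:91225457-91228677, GRCm38), the bHLH factor of the motor neuron and oligodendrocyte progenitor domain, had 371 and 136 CPM in Input for replicates 1 and 2. In LacZ it had 239 and 94.9 CPM, in ODD 252 and 90.8 CPM, and in EVEN 236 and 95.0 CPM. Replicate 1 was high and replicate 2 low in every group, so that Input and pull-down groups overlapped although each pull-down library lay below the Input of its own experiment. Across groups Olig2 was 2.61-fold lower in replicate 2 on average, with log2 ratios from -1.47 to -1.30. Its log2 fold changes against Input were -0.56, -0.62 and -0.60 in ODD, EVEN and LacZ, with standard errors of 0.74 to 0.75 and an adjusted p of 0.747 to 0.796 by edgeR's quasi-likelihood test. With the replicate block the values were -0.57, -0.59 and -0.58, with an SE of 0.11 and adjusted p-values of 0.0125, 0.0120 and 0.0113.

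Nkx2-2 (chr2:147177546-147194243, GRCm38), the homeodomain factor of the domain next to Olig2 that also acts in oligodendrocyte differentiation, had 94.1 and 40.4 CPM in Input. It had 63.4 and 19.2 CPM in LacZ, 68.8 and 17.3 CPM in ODD, and 70.1 and 18.0 CPM in EVEN. All 6 pull-down libraries were below their Input, by -0.42 to -0.56 on the log2 scale in replicate 1 and by -1.03 to -1.18 in replicate 2. The mean log2 ratio of replicate 2 to replicate 1 was -1.68. In edgeR's quasi-likelihood test against Input its log2 fold changes were -0.64, -0.61 and -0.71 in ODD, EVEN and LacZ, with adjusted p-values of 0.783 to 0.813, and with the block -0.83, -0.79 and -0.83, with adjusted p-values of 0.0242, 0.0293 and 0.0237. Nkx2-2 shares exon sequence with the antisense gene Nkx2-2os, and no source used here says whether counting used the strand, so reads of the pair may not be told apart.

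Pax6 (chr2:105668900-105697364, GRCm38), a paired-box factor of progenitors outside the most ventral domains, had the fewest reads of the 10 genes, 63 to 311 per library. Its level was 12.8 and 6.87 CPM in Input, 13.7 and 5.48 CPM in LacZ, 13.2 and 7.69 CPM in ODD, and 13.8 and 7.10 CPM in EVEN. The range of each pull-down group overlapped that of Input, and the replicate 2 libraries were low in each group, by 1.85-fold on average. Against Input, Pax6 had log2 fold changes of 0.09, 0.09 and -0.05 in ODD, EVEN and LacZ with standard errors of about 0.56, and it was not called with the block.

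Sox1 (chr8:12395295-12400126, GRCm38), a SoxB1 factor that keeps neural progenitors undifferentiated, differed least between the experiments. It had 82.8 and 77.4 CPM in Input, 63.8 and 57.4 CPM in LacZ, 64.3 and 57.8 CPM in ODD, and 66.3 and 56.4 CPM in EVEN. Both Input libraries were above all 6 pull-down libraries, with no overlap. Replicate 2 was 1.12-fold lower on average. In ODD, EVEN and LacZ the log2 fold changes against Input were -0.39, -0.38 and -0.40, each with an SE of 0.16, with adjusted p-values of 0.262, 0.264 and 0.239 in edgeR's quasi-likelihood test and of 0.0404, 0.0426 and 0.0366 with the replicate block. The miRNA gene Gm25239 lies on the same strand within a Sox1 exon.

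Sox9 (chr11:112782224-112787760, GRCm38), the SoxE factor of the switch to glia, had 496 and 232 CPM in Input. In the pull-downs it had 340 and 171 CPM in LacZ, 326 and 156 CPM in ODD, and 361 and 167 CPM in EVEN. As with Olig2, each pull-down library was below its own Input, by -0.43 to -0.60 on the log2 scale, and replicate 2 was low in every group, by 2.09-fold on average. Its log2 fold change against Input was -0.59, -0.46 and -0.51 in ODD, EVEN and LacZ, with adjusted p-values of 0.693 to 0.758 by edgeR's quasi-likelihood test. With the block it fell by 0.59, 0.47 and 0.49, with an SE of 0.11 and adjusted p-values of 0.0111, 0.0276 and 0.0214.

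The Notch effector Hes5 (chr4:154960923-154962371, GRCm38), a bHLH repressor, had 62.0 and 27.6 CPM in Input. It had 90.5 and 22.6 CPM in LacZ, 104 and 25.2 CPM in ODD, and 92.7 and 21.6 CPM in EVEN. In replicate 1 all 3 pull-downs were above Input, by 0.54 to 0.73 on the log2 scale, and in replicate 2 all 3 were below it, by -0.13 to -0.34. The mean difference between the experiments was the largest of the 10 genes, 3.45-fold lower in replicate 2, and 0.272% of genes tested had a mean as low. Over both replicates the log2 fold change against Input was 0.53, 0.35 and 0.33 in ODD, EVEN and LacZ, with standard errors of about 0.97, and with the block the adjusted p-values were 0.416, 0.783 and 0.770. Hes5 overlaps the opposite-strand transcript Gm20421 in its exons, with the same limit on strand as for Nkx2-2.

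Hes5 is induced when the Notch intracellular domain joins the DNA-binding protein RBPJ, so the 250 bases before its annotated start (RefSeq, GRCm38.p6, chr4:154960673-154960922, plus strand) were searched for the RBPJ core GTGGGAA on both strands (TTCCCAC on the reverse). The sequence is shown 5′ to 3′, with matches in capitals.
Hes5: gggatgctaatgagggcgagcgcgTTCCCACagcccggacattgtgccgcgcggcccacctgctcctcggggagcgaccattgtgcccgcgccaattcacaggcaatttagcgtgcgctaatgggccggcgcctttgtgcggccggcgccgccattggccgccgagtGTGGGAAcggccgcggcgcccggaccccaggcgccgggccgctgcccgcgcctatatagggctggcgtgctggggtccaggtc
The 2 matches begin 226 and 83 bases before the start. Over 32851 promoter starts in the table, 5.42% held at least 1 match and 0.161% held 2 or more in the same length. Of the 10 genes, 8 were in the table, and Hes5 was the one of these with a match. Hes1 and Sox9 were absent from the table and were not searched. Several of the other windows, such as those of Olig2 and Nkx2-2, overlapped exons of coding genes, whereas that of Hes5 did not. A match describes the letters in this window and is not a measured binding site.

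Hes1 (chr16:30064384-30067796, GRCm38), the second Notch-induced repressor among the 10, varied less. Its level was 44.1 and 40.3 CPM in Input, 49.4 and 33.4 CPM in LacZ, 47.9 and 35.6 CPM in ODD, and 50.1 and 37.8 CPM in EVEN. Its pull-down libraries were above Input in replicate 1, by 0.11 to 0.18 on the log2 scale, and below it in replicate 2, by -0.09 to -0.26, the same split as for Hes5 at a smaller size. Replicate 2 was 1.30-fold lower on average, and against Input the log2 fold change was -0.02, 0.06 and -0.03 in ODD, EVEN and LacZ.

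Fabp7 (chr10:57784881-57788450, GRCm38) had 567 and 541 CPM in Input, 1120 and 495 CPM in LacZ, 967 and 570 CPM in ODD, and 1015 and 712 CPM in EVEN. The 3 pull-downs of replicate 1 stood above Input by 0.77 to 0.98 on the log2 scale, and those of replicate 2 were between -0.13 and 0.39. The Input libraries differed by 0.07 on the log2 scale and the LacZ libraries by 1.18, so replicate 2 was lower mainly in the captured RNA. Against Input Fabp7 had the highest fold changes of the 10 in EVEN and LacZ, with log2 values of 0.64 (SE 0.42) and 0.54 (SE 0.42), and neither these nor the 0.47 (SE 0.42) in ODD passed the test (adjusted p of 0.500, 0.599 and 0.658 in edgeR's quasi-likelihood test).

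Slc1a3 (chr15:8634124-8710764, GRCm38), the glutamate transporter GLAST of radial glia and astrocytes, had 331 and 127 CPM in Input. It had 167 and 107 CPM in LacZ, 161 and 98.7 CPM in ODD, and 156 and 106 CPM in EVEN. The pull-downs were below Input by -0.98 to -1.08 on the log2 scale in replicate 1 and by -0.24 to -0.35 in replicate 2. In the fit without the block, Slc1a3 had the lowest log2 fold changes of the 10 against Input, -0.82, -0.80 and -0.74 in ODD, EVEN and LacZ, each with an SE of 0.49 and with adjusted p-values of 0.462, 0.455 and 0.513 in edgeR's quasi-likelihood test. With the block its values were -0.73, -0.69 and -0.64, all above those of Nkx2-2. ODD was then called at an adjusted p of 0.0438, and EVEN and LacZ were not, at 0.0514 and 0.0656.

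Neurog2 (chr3:127633135-127635631, GRCm38), the proneural factor that drives exit from the cell cycle and neuronal fate, had 17.2 and 15.4 CPM in Input, 18.2 and 12.6 CPM in LacZ, 16.7 and 12.02 CPM in ODD, and 16.9 and 15.7 CPM in EVEN. The groups overlapped, and replicate 2 was 1.23-fold lower on average. Its log2 fold change was -0.18, 0.00 and -0.09 against Input in ODD, EVEN and LacZ with standard errors of 0.26, and it was not called with the block.

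**Figure D2:**
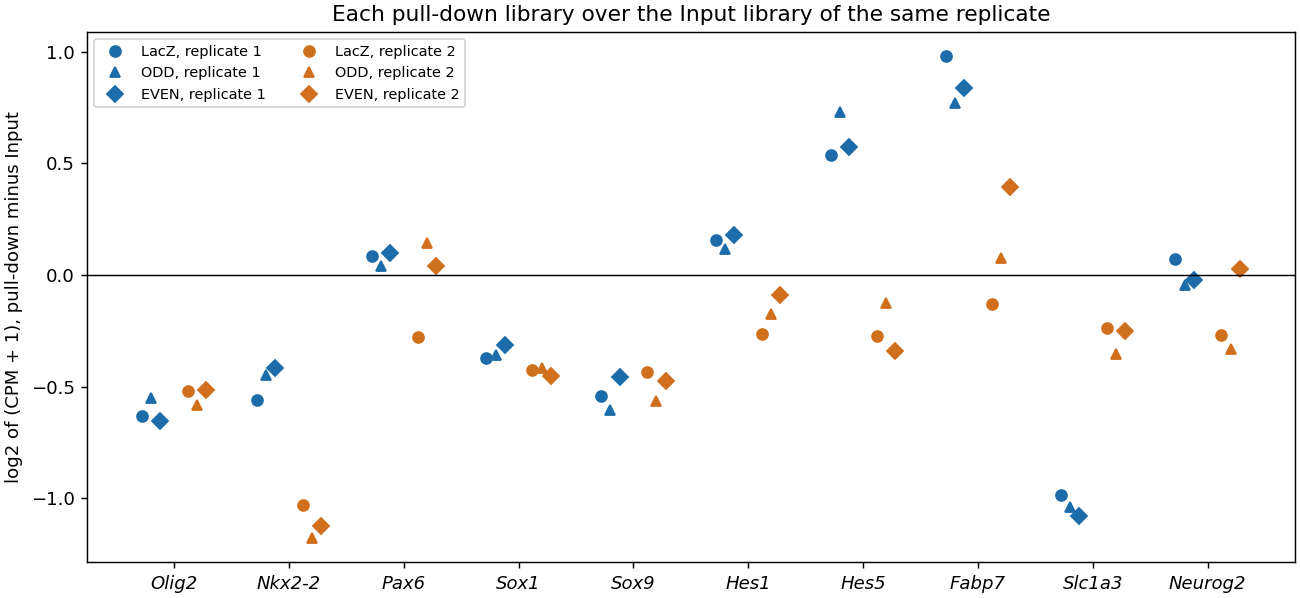
Each pull-down library set against the Input library of the same replicate, as the log2 difference of CPM + 1 for the 10 genes; blue is replicate 1 and orange replicate 2, and the marker shape gives the probe set. Olig2, Nkx2-2, Sox1, Sox9 and Slc1a3 lie below 0 in all 6 libraries, whereas Hes1 and Hes5 lie above 0 in replicate 1 and below it in replicate 2.

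The genes that lay below Input with the Lhx1os probes also lay below it with the control probes. Across the 10 genes the log2 difference from LacZ lay between -0.10 and 0.19 for ODD and between -0.06 and 0.14 for EVEN. In edgeR's quasi-likelihood test 0 of the 10 passed for ODD, for EVEN and for their mean against LacZ, with 0 at an unadjusted p under 0.05, and DESeq2 and limma called 0 as well. The background was 0% in each of these 3 comparisons, both without and with the replicate block: edgeR called 0 of 16524 genes, with 170, 283 and 218 at an unadjusted p under 0.05, and DESeq2 called 1, 13 and 2 genes. The genes without a call include the target: Lhx1os was 5.57 (SE 1.15) and 5.27 (SE 1.13) higher than LacZ on the log2 scale in ODD and EVEN, with adjusted p-values of 1.00 in edgeR's quasi-likelihood test, and of 1.00 and 0.576 with the block. A count of 0 in these comparisons therefore does not show that the 10 genes did not differ. Standard errors of the 10 genes with the block ran from 0.11 for Sox1 to 0.24 for Fabp7 in ODD against LacZ. Without the block Hes5 had the highest difference, 0.19 (SE 0.97) in ODD against LacZ, and 0.18 (SE 0.23) with the block, and at this replication it was not distinguishable from no difference. The comparisons share their Input or LacZ libraries, so their values are given side by side and not compared with each other.

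The difference between pull-down and Input was not the same in both experiments for every gene. As a description, the interaction of pull-down with experiment was fitted in edgeR after the values had been seen, with the 3 kinds of pull-down pooled. Slc1a3 had a fitted interaction of 0.75 on the log2 scale, which is a smaller distance below Input in replicate 2. Hes5 had -0.88, Fabp7 -0.74, Nkx2-2 -0.67 and Hes1 -0.33, which are lower pull-down levels in replicate 2 relative to Input. Olig2 had 0.07 and Sox9 0.04. Each experiment rests on 1 Input library, so the fit holds no measure of the spread of Input within an experiment, no p-value is given, and a deviation of that library cannot be told apart from a difference of all 3 pull-downs.

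**Figure D3:**
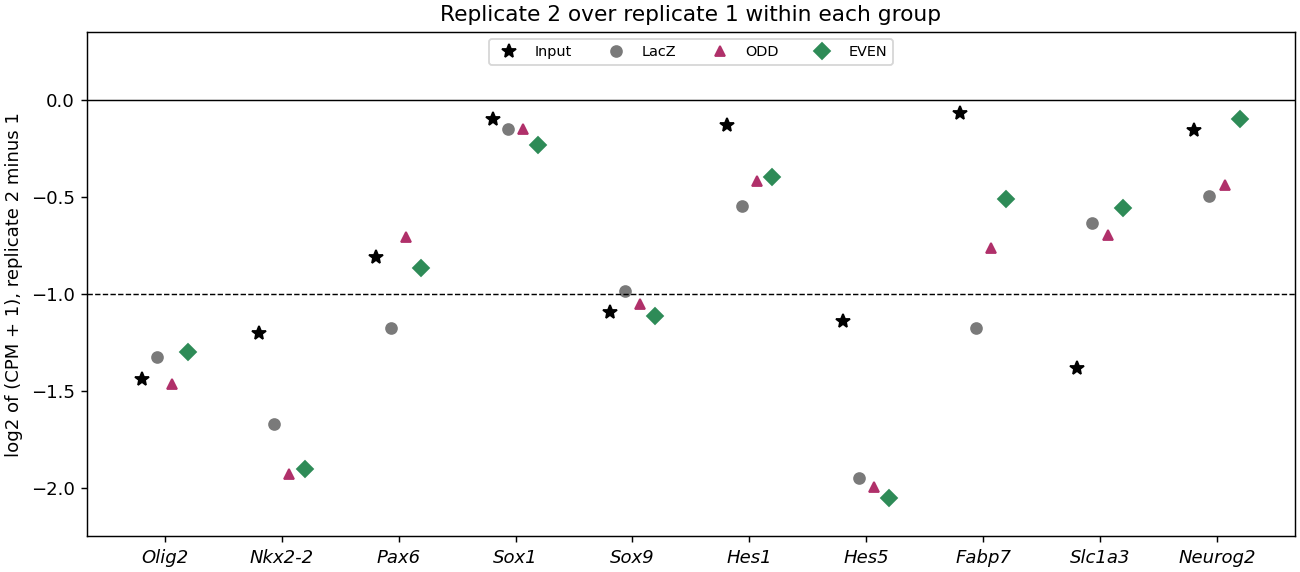
Replicate 2 set against replicate 1 within each group, as the log2 difference of CPM + 1 for the 10 genes, with 1 marker per group and a dashed line at 2-fold lower. All markers lie under 0, and those of Olig2, Nkx2-2 and Hes5 lie under the dashed line in all 4 groups, down to -2.05 for Hes5 in EVEN.

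Other genes of the same lineages were read from lists by role, with the same rule of 2-fold in all 4 groups for replicate 2 against replicate 1. Of the 14 oligodendrocyte lineage genes tested, 13 were lower past 2-fold and none higher, with a median of -2.59. Gpr17, a receptor of committed oligodendrocyte precursors, went from 347 to 11.7 CPM in Input between the replicates, and Myrf, the regulator of myelin genes, from 166 to 8.72 CPM. Mag, a myelin gene, went from 18.8 to 0.390 CPM. The summed level of the list was 2135 and 302 CPM in the Input libraries, 1336 to 1432 CPM in the pull-downs of replicate 1 and 227 to 243 CPM in those of replicate 2. The exception was Nkx6-2, at -0.38, which is also a progenitor gene.

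Among 13 astrocyte genes tested, 3 were lower past 2-fold, S100b, Nfix and Aldoc, with means of -3.07, -1.59 and -1.48, and 1 was higher, Cd44 at 1.57. The median was -0.64, and Gfap, the intermediate filament of mature astrocytes, and Aqp4, their water channel, had 0 to 15 and 3 to 16 counts per library. Of 21 other progenitor genes, Olig1, the partner of Olig2, and Fzd9, a Wnt receptor, were lower past 2-fold, with means of -2.41 and -1.36, and the median was -0.26. Of 25 Notch pathway genes 1 passed, Dll3, a divergent Notch ligand, at -1.28, and the median was -0.39. Of 17 proneural and neurogenic genes 1 passed, Neurog3 at -1.65. Of 18 cell division genes 1 passed, Ccnd1, a cyclin of the G1 phase, higher at 1.43, and the median was 0.07.

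Neuronal genes lay the other way. Of 19 motor neuron and general neuron genes, 4 were higher past 2-fold in replicate 2 and none lower, with a median of 0.59. Prph, a filament of peripheral and motor axons, had a mean of 2.46, the choline transporter Slc5a7 1.71, Chat 1.49 and the neurofilament Nefl 1.19. The summed level of the list was 4547 and 7221 CPM in Input for replicates 1 and 2. No gene passed among the 6 tested for other cells, and the most abundant of these, the fibroblast collagen Col3a1, had 86.5 and 39.6 CPM in Input. Of the defining motor neuron factors, Mnx1 and Lhx3 had means of 0.05 and 0.17 and were not higher in all 4 groups, and Isl1 had a mean of 1.02. The lower level of the 10 genes thus came with lower levels of 13 oligodendrocyte lineage genes, higher levels of 4 of the 19 neuron genes and a smaller recovery of Lhx1os in replicate 2. Their part in the difference was not tested, and culture, capture and sequencing of an experiment cannot be told apart.

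**Figure D4:**
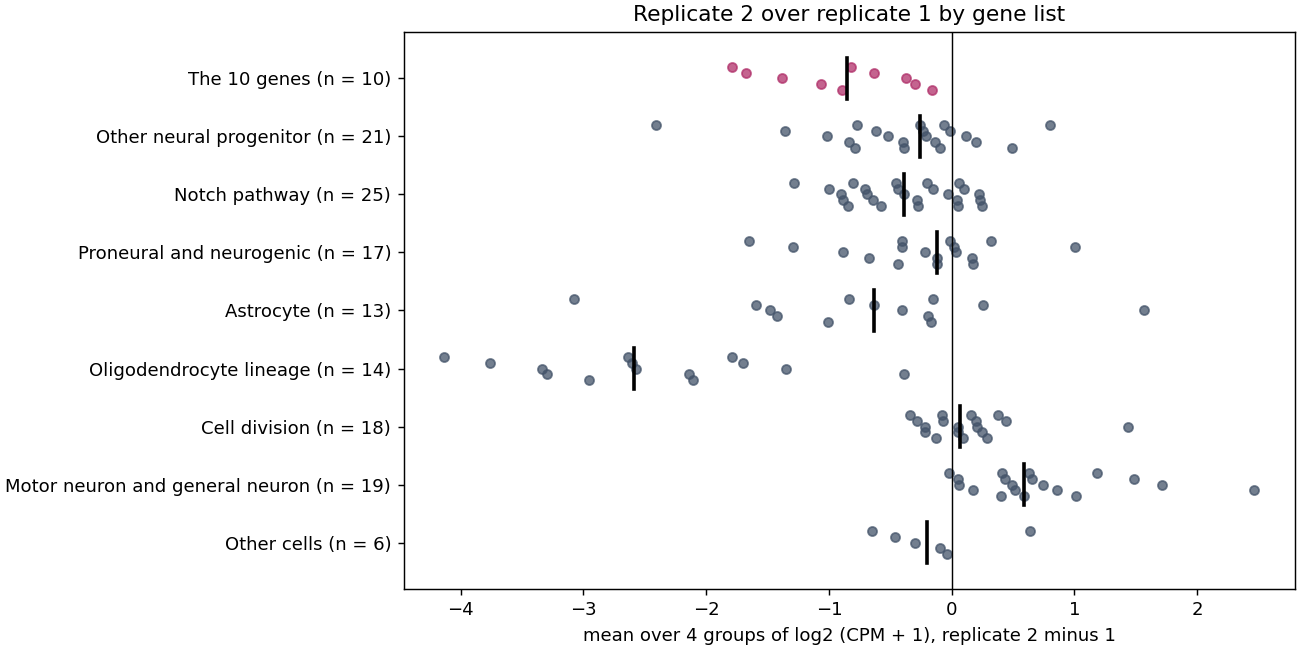
Mean over the 4 groups of the log2 difference of CPM + 1 between replicate 2 and replicate 1, with 1 point per gene for the 10 genes and 8 lists and a bar at each median. The oligodendrocyte lineage list has its median at -2.59, the 10 genes at -0.85 and the motor neuron and general neuron list at 0.59.

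Against Input, edgeR's quasi-likelihood test called no gene of the 8 lists in ODD, EVEN or LacZ. With the replicate block, 6, 7 and 7 of the 14 oligodendrocyte lineage genes were called lower in ODD, EVEN and LacZ, beside 6.55%, 6.41% and 7% of all genes. In the same order, 6, 6 and 5 of the 25 Notch pathway genes, 5, 4 and 4 of the 13 astrocyte genes, 3, 3 and 3 of the 21 other progenitor genes, and 1, 2 and 4 of the 17 proneural and neurogenic genes were called lower, and so were 1, 1 and 1 of the 18 cell division genes and 0 of the 6 genes of other cells. Of the 19 neuron genes 2, 3 and 3 were called lower, among Elavl3, Elavl4 and Tubb3, and 1 was called higher in each pull-down, Chat; these were named after their values were seen. Mcm6, a replication factor also named after its value was seen, was called higher in EVEN. Of all genes tested, 12.6%, 12.8% and 12.7% were called higher with the block in ODD, EVEN and LacZ. Over the 10 genes the log2 fold changes had medians of -0.29, -0.19 and -0.25 in ODD, EVEN and LacZ, and over all genes tested of -0.03, -0.00 and -0.05. Longer genes of the 10 tended to have the lower values: Spearman's rho between gene length and log2 fold change was -0.56, -0.54 and -0.64 in ODD, EVEN and LacZ over 10 genes. Over 13450 coding genes rho was 0.19, 0.17 and 0.24. These are descriptions across genes that share the same 8 libraries.

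How alike the 10 genes were is given as Pearson's r of log2(CPM + 1) over the 8 libraries, which share 2 experiments and 4 groups. Olig2 and Sox9 had r = 0.99, Olig2 and Nkx2-2 0.98, and Hes5 and Pax6 0.96, whereas Fabp7 and Sox1 had -0.11. Among genes outside the 10, those most like the mean profile of the 10 were Inka2, Ezr, Ppp1r14c, Fyn and Nog, with r between 0.993 and 0.995. Nog, a secreted BMP antagonist, had 25.1 and 11.5 CPM in Input and a mean log2 of -1.25 between the experiments. Fyn, a Src family kinase, had 338 and 231 CPM in Input and a mean of -0.61.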

How the data were processed

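The authors deposited raw read counts by Ensembl gene ID. The FPKM values the authors deposited equalled count divided by gene length and column total, within a relative difference of 6.66e-14. Per the submitters' processing notes, cutadapt 3.2, Bowtie2 2.4.2, Picard, HTSeq 0.13.5 and GRCm38 were used, with no order given. Per the labels' protocols, libraries were stranded and depleted of ribosomal RNA. For the annotation and the strand setting of counting, the sources used here give nothing. Symbols and coordinates came from GENCODE M21, which matched 55144 of 55471 IDs; 0 columns were left unmapped.

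Counts were tested with edgeR 4.0.16 (R 4.3.3): quasi-likelihood test, all 8 libraries, group only, TMM (factors 0.965 to 1.03), the default filter, and Benjamini-Hochberg adjustment over 16524 genes. P-values are two-sided. CPM used TMM-scaled totals, with a pseudocount of 1 on the log2 scale. Alternatives were the replicate block, DESeq2 1.42.0, limma 3.58.1 on log2 FPKM, other scalings and filters, and leaving out each library. Depth, 7632775 to 24628435 counts, limits low genes such as Pax6.

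Replicate number is the batch in the labels, 1 per independent experiment, so it pairs libraries; deviations from group means correlated with r of 0.534 to 0.765 over 6 pairs. Chi-square per degree of freedom between replicates was 31.5 to 61.5, so none were duplicates. The labels name no separate cultures beyond the experiments, so p-values measure only the spread between these libraries. The edgeR script was tested on simulated data. All 10 genes are named; from each list, up to 4 past the threshold with the largest change, otherwise the most abundant; and the 5 genes most like the mean profile. A list gene that the rule names is not reported here. The genes and lists were chosen with earlier results of these data known.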

Additional observations from a re-analysis of the deposited data

Results flagged for a closer look

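For Hes5, and likewise for Hes1, the pull-downs lay on opposite sides of Input in the 2 experiments: the mean log2 difference of the 3 pull-downs from Input was 0.61 in replicate 1 and -0.25 in replicate 2 for Hes5, and 0.15 and -0.18 for Hes1. The interaction of pull-down with experiment fitted in edgeR was -0.88 for Hes5, 0.75 for Slc1a3, -0.74 for Fabp7 and -0.67 for Nkx2-2, the largest in size among the 10 genes. That fit was chosen after this pattern was seen and holds 1 Input library per experiment, so it restates the pattern and is no independent test of it.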

How the results depend on the processing

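The replicate numbers pair the libraries, and the replicate block was the setting that changed most calls: of the 10 genes it called 5 in ODD, 4 in EVEN and 4 in LacZ against Input, and 3169, 3182 and 3249 genes in all against 1130, 935 and 1224 without it. Against LacZ it changed no call. With no filter 1 of the 10, Slc1a3, was called in ODD and in EVEN, lower in both. Beside this, 7.32% and 6.6% of 28192 genes were called in either direction. At 1.5-fold in place of 2-fold, 5 of the 10 were lower in replicate 2 in all 4 groups, beside 2.47% of genes tested. Values near 0 changed sign: Hes1 to 0.039 in ODD and 0.032 in LacZ with a filter of 50 counts and to 0.012 in LacZ with total library size, Pax6 to 0.0087 in LacZ with a filter of 50 counts, and Neurog2 in EVEN to -0.047 with DESeq2, -0.029 with RLE, -0.0186 with total library size, -0.037 with no filter, and -0.0168 and -0.0189 with limma at pseudocounts of 1 and 0.1. The cause was not tested.

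Leaving out 1 library at a time, no gene of the 10 was called. Against Input, Sox1 kept its direction throughout, as did Fabp7 in ODD and EVEN. In ODD the log2 values ran from -1.49 to 0.33 for Olig2, -1.97 to 0.088 for Nkx2-2, -0.37 to 0.60 for Pax6, -1.23 to 0.051 for Sox9, -0.26 to 0.18 for Hes1, -0.84 to 1.22 for Hes5, -1.36 to 0.030 for Slc1a3 and -0.45 to 0.026 for Neurog2. In EVEN they ran from -1.42 to 0.27 for Olig2, -1.91 to 0.12 for Nkx2-2, -0.48 to 0.60 for Pax6, -1.13 to 0.18 for Sox9, -0.17 to 0.24 for Hes1, -1.06 to 1.04 for Hes5, -1.35 to 0.045 for Slc1a3 and -0.087 to 0.077 for Neurog2. In LacZ they ran from -1.43 to 0.29 for Olig2, -1.82 to 0.023 for Nkx2-2, -0.85 to 0.47 for Pax6, -1.10 to 0.14 for Sox9, -0.35 to 0.22 for Hes1, -0.996 to 1.03 for Hes5, -0.17 to 1.01 for Fabp7, -1.28 to 0.11 for Slc1a3 and -0.38 to 0.15 for Neurog2. A group left with 1 library was assumed to vary like the others. These fits did not use the replicate block, so a group left with 1 library, from 1 experiment, was compared with groups holding both. Set against the Input of their own experiment, Olig2, Nkx2-2, Sox1, Sox9 and Slc1a3 were lower in all 6 pull-down libraries. Without Input replicate 1, 5, 4 and 6 of the 10 genes changed sign in ODD, EVEN and LacZ. Over all genes edgeR then called 132, 0 and 214, and without any 1 library of the groups compared the calls numbered 132 to 732 for ODD, 0 to 586 for EVEN and 214 to 806 for LacZ. Over all genes against Input it also called 2064, 1860 and 2118 with no filter and 535, 494 and 565 with a filter of 50 counts. With only the groups compared it called 709 in ODD and 477 in EVEN, and limma with a pseudocount of 1 called 440 in EVEN. Against LacZ, with no filter, 75, 72 and 81 genes were called for ODD, EVEN and their mean, none of them among the 10. Leaving out 1 library also changed signs against LacZ: without LacZ replicate 2, 6 of the 10 genes did so in ODD and 8 in EVEN.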

Other observations

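Gja1, the astrocyte gap junction gene connexin 43, was singled out after its values were seen. Its ODD and EVEN levels were 3.57 and 3.47 times LacZ in replicate 1, and 1.14 and 1.15 times LacZ in replicate 2. The Input library of replicate 1 lay between them at 56.9 CPM, with LacZ at 23.7, ODD at 84.6 and EVEN at 82.2 CPM. In replicate 1 LacZ was thus below Input, while ODD and EVEN were above it. The cause of the high ratios was not tested. In replicate 2 Input, at 28.7 CPM, was above every pull-down. The log2 fold change against Input was 0.27 (SE 0.84) for ODD, 0.24 (SE 0.84) for EVEN and -1.10 (SE 0.87) for LacZ. Averaged over both Lhx1os probe sets, the log2 fold change against LacZ was 1.36 (SE 0.79), with an adjusted p of 1.00 in edgeR's quasi-likelihood test. Gja1 was also 2.68-fold lower in replicate 2 than in replicate 1, as a mean over the 4 groups.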
